A study of Mus musculus with 2 samples.

Results

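The genes of inhibin, activin and Amh signalling were followed through the DNase I hypersensitive sites (DHSs) of the mouse adrenal gland. The 9 genes were taken by name, out of 21802 protein-coding genes of GENCODE M21 on mm10 (GRCm38): Inha, Inhba, Inhbb, Fst, Acvr1b, Acvr2a, Acvr2b, Amh and Amhr2. DNase-seq cuts nuclei with DNase I, so that stretches cut often mark open chromatin at promoters and enhancers. Both libraries came from adrenal glands of B6CASTF1/J males, 25 days of age, 1 library from each of 2 mice, which the labels number separately while giving both the same donor code. No treatment, mutation or second tissue was part of the study, so there is 1 group of 2 libraries, values are given for replicate 1 and then replicate 2, and no p-value can be given. For each gene, all DHSs touching the gene body or the 50 kb on either side were taken. A DHS was a promoter DHS where it touched the 1 kb on either side of a protein-coding start, and a distal DHS where it touched no gene's promoter window. Height is the deposited peak signal, which the values show to be scaled per library, and a DHS is shared where it overlaps a DHS of the other library by at least 1 bp.

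Inhibins and activins are paired protein chains of the TGF-beta family. The inhibin alpha chain (Inha) pairs with a beta chain (Inhba or Inhbb) to form inhibin, and beta chains pair with each other to form activin, which binds a type II receptor (Acvr2a or Acvr2b) that then engages a type I receptor (Acvr1b) to activate SMAD proteins. Follistatin (Fst) traps activin, and inhibin blocks its access to the type II receptors. Anti-Mullerian hormone (Amh) is best known as the Sertoli cell signal that removes the female ducts in male embryos and acts through its own receptor, Amhr2. In the mouse adrenal cortex, loss of Inha combined with removal of the gonads is known to lead to tumours.

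The depth read from the values was close in both libraries. Each library's heights fell on multiples of a fixed step, within 0.01 of it, and the steps of 0.00833 and 0.00888 correspond, if heights are CPM, to totals of 120.002 and 112.575 M counts. The lists held 130945 and 157786 DHSs with median heights of 1.01 and 0.720. The tissue label was checked on marker promoters: 6 of 6 adrenal cortex genes and 4 of 5 chromaffin genes were open in both libraries, against 0 of 3 kidney genes. Summed heights were 33.8 and 17.4 for the cortex genes and 21.4 and 9.32 for the chromaffin genes, so both sums were lower in replicate 2. Among Sertoli and granulosa markers, cells in which several of the 9 genes are best known, 3 of 5 were open in both libraries with summed heights of 9.57 and 5.98, while Fshr and Cyp19a1 had no promoter DHS in either. Among Leydig cell markers 1 of 4 was open in both, with sums of 1.58 and 0.622, and Insl3 and Hsd17b3 had none. Adipocyte markers summed to 6.90 and 3.30, with 2 of 3 open in both, and lymphocyte markers to 0 and 3.71, with 3 of 5 open in replicate 2 alone. The part of these cells in the results below was not tested. In whole tissue, fewer cells with an open site and less opening per cell cannot be told apart.

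The stretches printed here carry the contrasts that follow. They were read from the RefSeq GRCm38.p6 genome, the build of the files, so they show the reference strain and not the CAST alleles of these hybrids. Each runs 5′ to 3′ on the strand of its gene. Capitals mark matches on either strand to the letters named next. Other letters searched, among them CAGACA for SMAD proteins, are not marked. For the nuclear receptor Nr5a1 the letters were CAAGGTCA, and the shorter nuclear receptor site contained in them, AGGTCA, was searched on its own as well. The cyclic AMP response element was TGACGTCA, with TGCGTCA as its variant form. GATA factors were given the letters AGATAA, and matches to a further set of letters, TGATAA, were counted with them. SP/KLF factors were given GGGCGG, and CTCF its core motif. The first 3 are the 200 bases before the 5′ end of Inha (plus strand, chr1:75506877-75507076), Acvr2a (plus strand, chr2:48813909-48814108) and Amhr2 (plus strand, chr15:102445167-102445366), which were weakly open, strongly open and without any DHS at the start.
Inha upstream: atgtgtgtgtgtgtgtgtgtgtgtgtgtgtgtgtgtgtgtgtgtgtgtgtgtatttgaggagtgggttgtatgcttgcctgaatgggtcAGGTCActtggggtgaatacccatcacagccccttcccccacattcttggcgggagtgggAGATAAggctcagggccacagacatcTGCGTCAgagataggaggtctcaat
Acvr2a upstream: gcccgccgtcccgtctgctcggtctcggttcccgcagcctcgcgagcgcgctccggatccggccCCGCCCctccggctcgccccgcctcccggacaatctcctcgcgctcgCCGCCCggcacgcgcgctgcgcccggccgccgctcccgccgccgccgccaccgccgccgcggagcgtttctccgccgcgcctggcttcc
Amhr2 upstream: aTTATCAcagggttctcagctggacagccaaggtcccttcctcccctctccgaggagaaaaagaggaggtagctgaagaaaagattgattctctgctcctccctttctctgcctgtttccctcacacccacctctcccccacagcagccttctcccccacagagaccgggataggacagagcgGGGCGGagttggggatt
The next 4 are single DHSs as replicate 1 lists them: the strongest distal DHS of all 9 genes, near Acvr1b (plus strand, chr15:101145521-101145700), the distal DHS of Inhbb with near-equal heights in both libraries (minus strand, chr1:119391381-119391560), and the most unequal DHSs of Amh (plus strand, chr10:80806001-80806160) and Amhr2 (plus strand, chr15:102442621-102442800).
Acvr1b distal: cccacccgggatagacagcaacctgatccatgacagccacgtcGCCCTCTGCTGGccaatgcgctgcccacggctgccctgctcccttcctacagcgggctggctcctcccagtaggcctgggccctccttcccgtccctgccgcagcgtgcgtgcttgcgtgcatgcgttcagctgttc
Inhbb distal: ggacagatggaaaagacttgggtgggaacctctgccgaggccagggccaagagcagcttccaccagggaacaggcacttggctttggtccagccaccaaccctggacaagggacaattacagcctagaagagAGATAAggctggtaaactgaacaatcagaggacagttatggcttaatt
Amh gene body: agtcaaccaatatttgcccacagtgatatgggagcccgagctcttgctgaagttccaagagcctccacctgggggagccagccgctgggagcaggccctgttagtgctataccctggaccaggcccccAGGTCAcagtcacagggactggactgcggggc
Amhr2 distal: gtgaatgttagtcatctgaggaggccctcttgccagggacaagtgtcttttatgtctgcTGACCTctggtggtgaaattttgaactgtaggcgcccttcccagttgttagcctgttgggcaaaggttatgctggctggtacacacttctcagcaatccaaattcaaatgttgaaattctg
The last 2 are shared distal DHSs that hold CAAGGTCA, around Inha (plus strand, chr1:75469523-75469755) and Inhbb (minus strand, chr1:119389121-119389300).
Inha with the Nr5a1 letters: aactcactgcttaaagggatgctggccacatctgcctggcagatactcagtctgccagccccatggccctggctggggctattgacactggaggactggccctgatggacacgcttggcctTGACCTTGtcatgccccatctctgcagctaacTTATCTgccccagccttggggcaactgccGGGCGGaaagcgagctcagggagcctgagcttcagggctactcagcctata
Inhbb with the Nr5a1 letters: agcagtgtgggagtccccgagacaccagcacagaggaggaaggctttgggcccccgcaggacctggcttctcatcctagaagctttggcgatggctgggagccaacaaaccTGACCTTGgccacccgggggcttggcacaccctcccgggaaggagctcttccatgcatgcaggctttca

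A promoter DHS was found for all 9 genes in each library, against 69.4% of all protein-coding genes in replicate 1, 69.1% in replicate 2 and 65.8% in both. With the shorter, stricter deposited list the count was again 9 of 9 in both libraries, against 60.6% of all genes. The 9 genes fell into 2 levels. The 3 activin receptors stood above the median of all open promoters, which was 8.85 in replicate 1 and 6.25 in replicate 2, and the ligand and inhibitor genes and Amhr2 stood below it in both libraries. Within 1 kb of the 5′ end itself, 8 of 9 genes had a DHS in both libraries, against 62.1% of all genes, the exception being Amhr2. With a window of 0.5 kb around any start, 7 of 9 remained in both libraries, since Amh had no DHS there and Amhr2 had 1 in replicate 1 alone. The share of all genes was not computed for this window, so that count cannot be read as high or low. All 9 promoter heights were lower in replicate 2, as were 88.3% of the genes open in both libraries, and the median log2 ratio, replicate 2 over replicate 1, was -0.46 both for the 9 genes and for all genes.

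**Figure D1:**
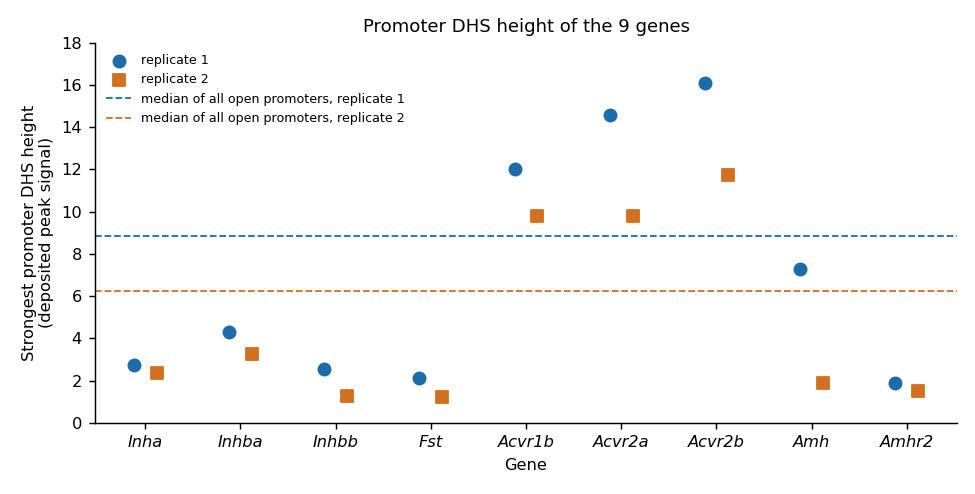
Height of the strongest promoter DHS (vertical axis, deposited peak signal) of the 9 genes (horizontal axis) in replicate 1 (circles) and replicate 2 (squares), with dashed lines at the medians of all open promoters, 8.85 and 6.25. Acvr1b, Acvr2a and Acvr2b lie above the line of their library in both, and the other 6 genes lie below it.

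Inha had a weak start and a stronger DHS that lay nearer to a start of a neighbour. The strongest DHS in its promoter window had heights of 2.73 and 2.38, at ranks of 45.6% and 48.9% among the promoter heights of all genes. The value depended on the window: with 2 kb on either side it was 5.69 and 4.33, and with 0.5 kb it was 1.01 in replicate 2. Its centre lay at -666 bp from the Inha 5′ end in replicate 1 (minus means before the start) and 50 bp from a start of Obsl1, a cytoskeletal adaptor gene, so the height cannot be assigned to Inha alone. Over the Inha start itself, replicate 1 had a DHS of height 0.983 (chr1:75506946-75507200) and replicate 2 had none on the start base, the nearest one, of height 1.01, beginning 64 bp away. Each of these heights was below that of the strongest DHS in the Inha promoter window of the same library. Those weaker DHSs also touched the promoter window of Obsl1. In the upstream stretch printed above, the variant TGCGTCA lay at chr1:75507052-75507058 within the replicate 1 DHS. It was touched by a footprint, a short stretch protected from cutting, in replicate 1 and not in replicate 2. Replicate 2 had fewer footprints genome-wide, 184847 against 272597. A footprint lay in 77.8% and 69.0% of all promoter DHSs, and in 77.6% and 61.6% of all distal DHSs. For single sites, how often a footprint is missing in replicate 2 alone was not counted. These letters stand in the same window of 1.77% of all genes, and the Inha promoter is known from gonadal cells for a response element of this kind. An AGATAA match, an AGGTCA match and an unmarked CAGACA match in the same stretch were touched by no footprint. Those letter sets stand in 11.7%, 10.3% and 12.2% of such windows.

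Inhba, the beta A chain, had its strongest promoter DHS in the untranslated part of the first exon, 530 bp after the 5′ end, with heights of 4.31 and 3.24. A second DHS over the start had 1.62 and 0.817, so the site inside the transcript was the stronger one in both libraries. Inhbb, the beta B chain, had 2.54 and 1.28 at 307 and 238 bp after its start. A DHS of height 1.80 touched the Inhbb start in replicate 1 alone. Fst, the activin trap, had 2.10 and 1.23 in its first exon at 330 and 340 bp, with a pair of further DHSs before the start, of 1.59 and 0.782 and of 0.642 and 0.648. The last of these was the only Fst promoter site with near-equal heights.

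The activin receptor promoters were the highest of the 9. Acvr2b had 16.1 and 11.7 at -67 and -97 bp, at ranks of 85.5% and 85.0% of all genes. Acvr2a had 14.6 and 9.82 at 12 and 32 bp, at ranks of 81.9% and 79.2%. Acvr1b had 12.03 and 9.78 at -86 and -36 bp, at ranks of 74.7% and 79.0%. Each of the 3 had a DHS lying over the start base in both libraries, and the lowest deposited FDR within 500 bp of the start reached 6.5e-137 and 1.7e-79 at Acvr2a. Acvr2a also carried weaker DHSs on both flanks, at -358 bp (3.69 and 3.49) and 692 bp (1.77 and 1.35), all shared.

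CpG content of the upstream bases separated the receptors from some, not all, of the weakly open genes. In the 200 bases before the 5′ end, Acvr2a had 41 CpGs, Acvr1b 36 and Acvr2b 20, against a median of 7 over all genes. Fst and Inhbb, with 25 and 19, were close to Acvr2b and had promoter heights of 2.54 or less. Amhr2 had 4, Inhba 3, Amh 3 and Inha 2. SP/KLF letters stood in this window of 6 of the 9 genes, Inhbb, Fst, Amhr2 and the 3 receptors, against 37.5% of all genes.

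Amh and Amhr2 had no open site at their 5′ ends in either library. Within 500 bp of either start there was no DHS, no footprint and not 1 base at an FDR of 0.05 or less, in replicate 1 or in replicate 2. The nearest DHS began 758 bp from the Amh start in both libraries, and 1629 and 2607 bp from the Amhr2 start. The Amh upstream window holds CAAGGTCA at chr10:80805149-80805156, a sequence found in this window of 0.977% of all genes and known from Sertoli cells as an Nr5a1 site of the Amh promoter. No DHS or footprint touched it in either library, while Nr5a1 itself had promoter heights of 9.01 and 4.09. What counted as the Amh promoter DHS lay 838 bp inside the gene, in a coding exon (the Amh gene body stretch above), with heights of 7.27 and 1.88. That is a log2 ratio of -1.95, the largest difference of any of the 9 promoters, and 4 footprints lay in it in replicate 1 and 0 in replicate 2. The Amhr2 promoter DHS lay in an intron 5724 bp inside the gene, near an alternative start, with heights of 1.87 and 1.53.

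**Figure D2:**
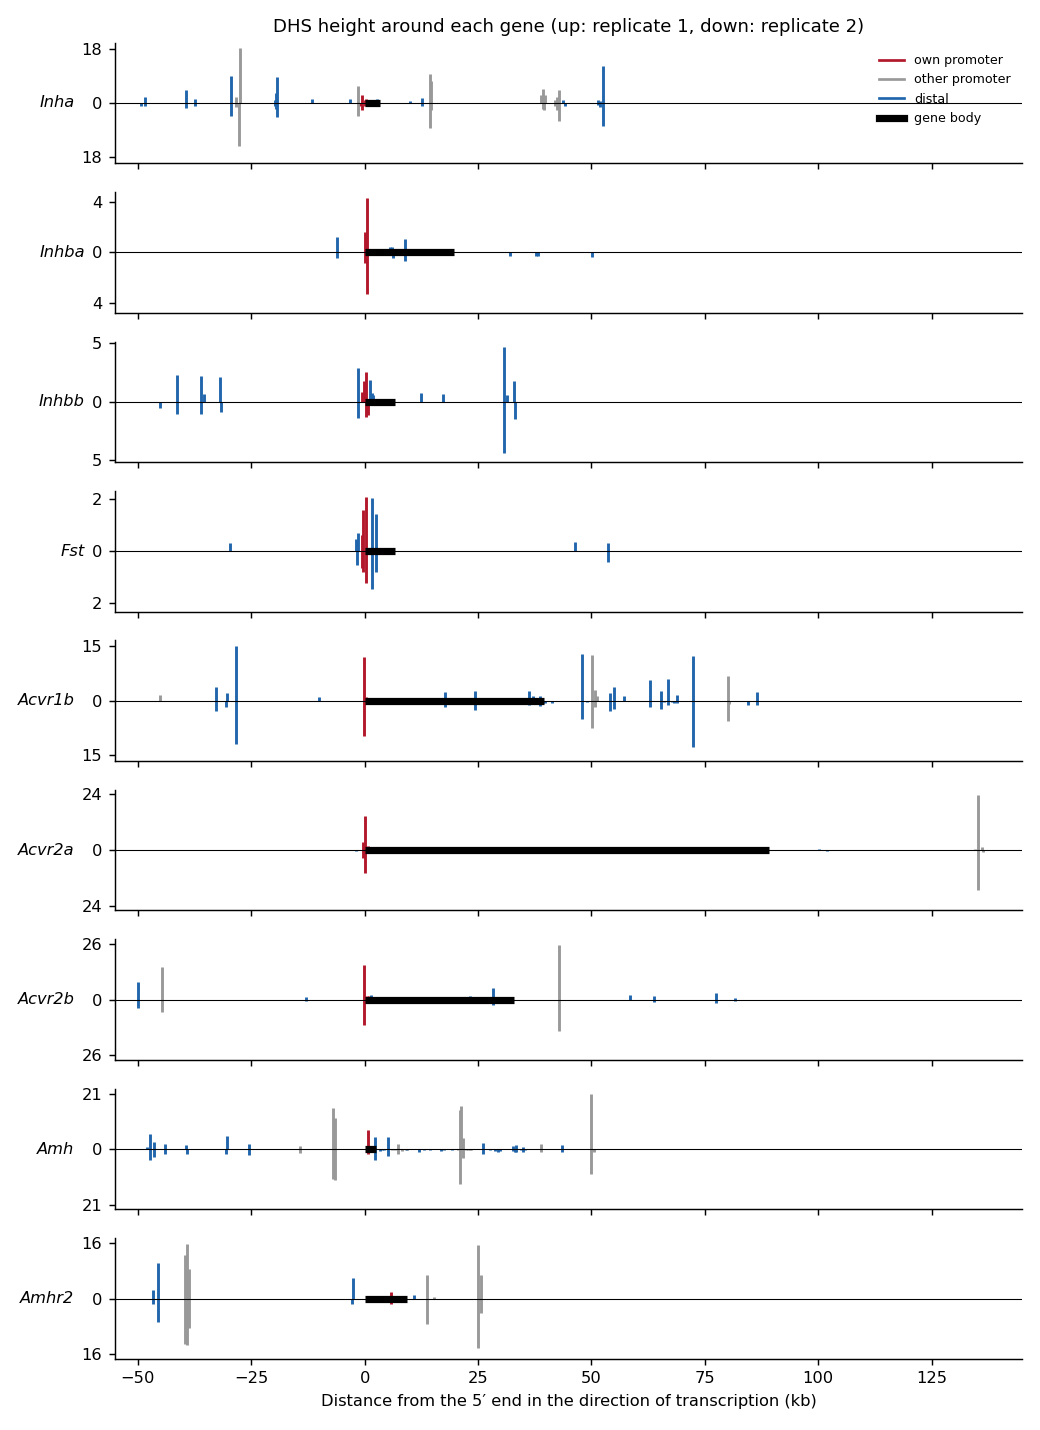
DHSs around each gene by distance of the DHS centre from the 5′ end (horizontal axis, kb), with height drawn upwards for replicate 1 and downwards for replicate 2 on a scale of its own for each gene. Red lines are the gene's own promoter DHSs, grey lines those of other genes, blue lines distal DHSs, and the black bar is the gene body; Acvr2a has almost no distal signal and Acvr1b has the tallest.

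Around the 9 genes there were 91 distal DHSs in replicate 1 and 114 in replicate 2. Of these, 65 were shared in replicate 1, or 71.4% (95% Wilson interval 61.4 to 79.7, counting error only), against 56.3% of all distal DHSs of that library. In replicate 2, 66 were shared, or 57.9% (48.7 to 66.6), against 44.5%. Sites of the same library are not replicates, so these intervals are no test against the share of all distal DHSs. Sharing followed height: among DHSs at or above the median height of their library, 89.1% and 83.1% were shared, against 85.3% and 81.8% of all distal DHSs in that class. Below the median the shares were 29.6% and 16.3%, against 35.3% and 17.9%, so within a height class the 9 genes lay close to the background. Shared distal DHSs were lower in replicate 2 in 53 of 65 cases (median log2 ratio -0.53), against 65.9% and -0.29 for all shared distal DHSs.

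**Figure D3:**
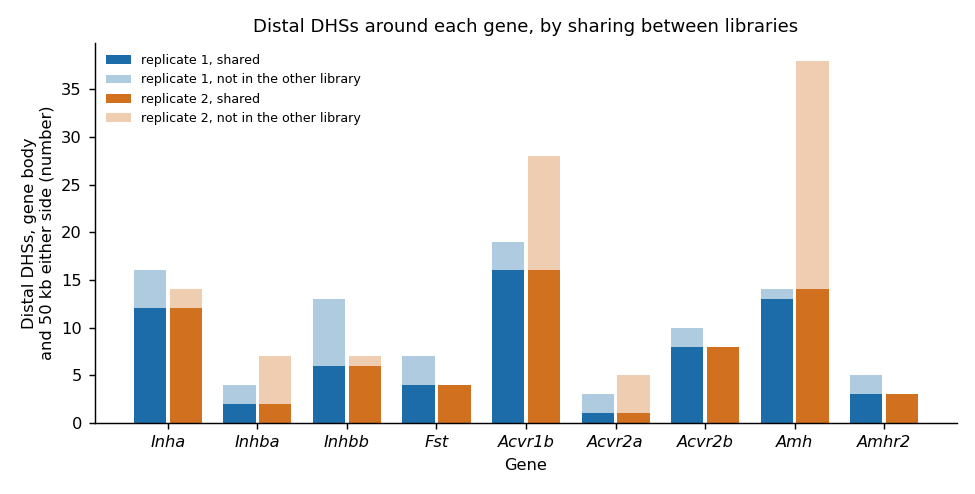
Number of distal DHSs in the gene body and 50 kb either side (vertical axis) of each gene (horizontal axis), for replicate 1 (blue) and replicate 2 (orange), with shared DHSs in full colour and DHSs absent from the other library in pale colour. Amh in replicate 2 stands out with 38, of which 24 had no overlap in replicate 1.

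Inha lay in dense surroundings. It had 16 and 14 distal DHSs, 12 shared in each, at density ranks of 96.6% and 94.4% of all genes. The strongest, at 52604 bp in the untranslated sequence of the ion exchanger gene Slc4a3, had heights of 12.4 and 7.75. Those next in height lay at -29486 bp in an exon of Chpf (8.98 and 4.26) and at -19256 bp in an exon of Obsl1 (8.52 and 4.72). The strongest distal DHS seen in 1 library was at -11694 bp, with 1.36 in replicate 1. Much of this signal lies in other genes, and which gene each site serves was not tested.

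Inhba and Fst had distal sites of low height, in numbers at or below the median of all genes, which was 7 in each library. At Inhba, with density ranks of 35.5% and 57.4%, there were 4 and 7, of which 2 were shared: 1 at -6110 bp with 1.19 and 0.453, and 1 in its own intron at 9000 bp with 1.04 and 0.693. Its strongest site in 1 library alone had 0.458 in replicate 1, at 5662 bp. Fst, at density ranks of 63.9% and 31.1%, had 7 and 4 distal DHSs, with all 4 of replicate 2 shared, the strongest in its own intron at 1580 bp with 2.06 and 1.45. Its strongest unshared site, at -1510 bp, had 0.700 in replicate 1. Neither gene had a distal DHS above 2.1 in either library.

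Inhbb had 13 and 7 distal DHSs, 6 shared in each, all 6 of them lower in replicate 2 (median log2 ratio -1.04). The strongest lay between genes at 30777 bp past the start (the Inhbb distal stretch above) and had 4.67 and 4.40, a log2 ratio of -0.09, so it departed least from equality of the 6. Its only match to the capital-marked letters was AGATAA. The site at -1503 bp had 2.92 and 1.39. The strongest unshared site, inside the gene at 1107 bp, had 1.87 in replicate 1.

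The activin receptors differed widely from each other in distal sites. Acvr1b had 19 and 28, with 16 shared in each, at density ranks of 94.3% and 98.3%. Its strongest site, at -28456 bp with heights of 15.1 and 11.9, held a CTCF match touched by a footprint in both libraries and lay closest to the start of Acvrl1, another type I receptor of the family. A site at 72374 bp, 7828 bp from the start of the nuclear receptor gene Nr4a1, had 12.4 and 12.6 and was the strongest in replicate 2. The site at 47884 bp, in contrast, had 12.7 and 4.95. Its strongest unshared site, at 37044 bp, had 1.34 in replicate 1.

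Acvr2a was the opposite case. Over its 89161 bp body and flanks it had 3 and 5 distal DHSs, at density ranks of 18.2% and 17.5%, and only 1 was shared, an intronic site at 72152 bp with 0.575 and 0.657. Its strongest unshared site had 0.480 in replicate 2, at -1927 bp. Acvr2b had 10 and 8, and all 8 of replicate 2 were shared and lower there. The strongest, at -49867 bp in an intron of Slc22a14, had 8.34 and 3.84. Next came an intronic site at 28383 bp with 5.63 and 2.41, whose CTCF match was touched by a footprint in replicate 1 only. The strongest unshared distal DHS of all 9 genes was at 58503 bp from Acvr2b, with 2.42 in replicate 1.

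Amhr2 had 5 and 3 distal DHSs, and all 3 of replicate 2 were shared and lower there. The strongest lay at -45626 bp, 6402 bp from the start of the transcription factor gene Sp1, with 10.1 and 6.78. A site at -2656 bp (the Amhr2 distal stretch above) had 5.75 and 1.44, a log2 ratio of -2.00. It carries no CAAGGTCA. It does carry an AGGTCA match and an unmarked CAGACA match, both touched by a footprint in replicate 1 and not in replicate 2. The strongest unshared site had 0.900 in replicate 1, at 10824 bp.

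**Figure D4:**
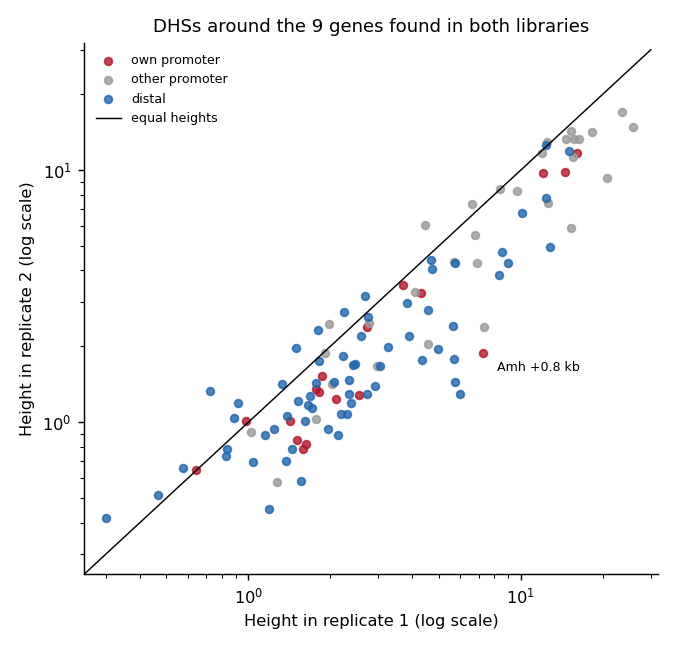
Height in replicate 1 (horizontal axis) against height in replicate 2 (vertical axis), both on log scales, of the shared DHSs around the 9 genes, coloured by class, with a line of equal heights. Most points lie below the line, and the DHS inside Amh, at 7.27 and 1.88, is among the farthest from it.

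Amh had the most unequal surroundings of the 9 genes. Before the start, the strongest distal DHS, at -47342 bp in an intron of the histone methyltransferase gene Dot1l, had 5.72 and 4.27. From 900 bp after the start onward, replicate 1 had 13 DHSs, all shared, while replicate 2 had 47, of which 34 overlapped none in replicate 1. These 34 spanned 49.3 kb (chr10:80806641-80855900) with heights of 0.107 to 1.22 and a median of 0.280, and 24 of them were distal. The strongest distal one had 1.22, at 12098 bp. Of the 34, 26 were in the stricter list, 16 of them below a height of 0.4, a height under which only 3.23% of that library's stricter list lies. Counting all of its window, Amh had 17 such low DHSs of the stricter list in replicate 2 and 0 in replicate 1, whereas 6.09% of all genes had any in replicate 2. Acvr1b had 2 in replicate 2, and the other 7 genes had 0. Only 1 of the 34 sites held any base of the replicate 1 FDR list.

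**Figure D5:**
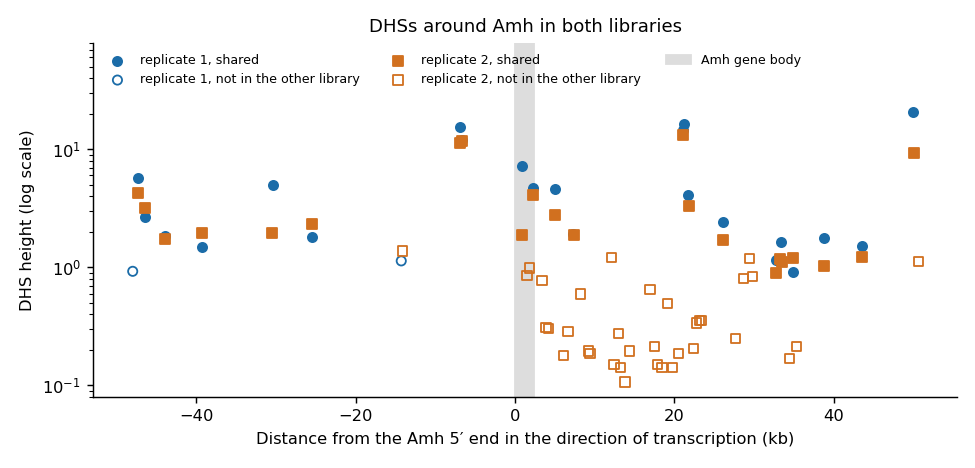
Height (vertical axis, log scale) of every DHS around Amh by distance from its 5′ end (horizontal axis, kb; the grey band is the gene body), for replicate 1 (circles) and replicate 2 (squares), filled where shared and open where not. Open squares with a median of 0.280 fill the 3′ side in replicate 2, where replicate 1 has filled circles only.

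The deposited FDR was also out of step with height around Amh, lower on that side in replicate 2 and mostly higher on both sides in replicate 1. The DHS at 838 bp had a lowest FDR of 2.4e-17 at a height of 7.27 in replicate 1, and of 1.2e-63 at the lower height of 1.88 in replicate 2. The shared DHS at 2218 bp, in an exon of Amh, had heights of 4.72 and 4.07, with lowest FDRs of 7.1e-15 and 4.7e-153. Around the other 8 genes, the 16 replicate 2 DHSs of height 1.5 to 2.5 had lowest FDRs between 2.6e-09 and 0.0018, and the 4 before the Amh start had 5.5e-05 to 0.00044. Of the 3 such DHSs after the Amh start, the lowest FDRs reached 8.2e-76 and the highest was 1.4e-07. At heights of 3.5 to 5.5, the 7 replicate 2 DHSs around the other genes had 5.9e-51 to 1.2e-13. In replicate 1, the median lowest FDR at heights of 1.5 to 2.5 was 2.1e-05 for 5 DHSs after the Amh start. It was 3.5e-05 for 2 before that start and 4.1e-10 for 28 around the other genes. At heights of 3.5 to 5.5, the replicate 1 medians were 7.1e-15 after the Amh start and 3.6e-23 around the other genes. The cause was not tested, and neither was the link between the FDRs and the replicate 2 count of DHSs around Amh. Without the Amh locus, 67.5% and 68.4% of the distal DHSs were shared.

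The adrenal factor Nr5a1 was looked for by its letters. CAAGGTCA lay in the central 200 bp of 4 of 65 shared distal DHSs in replicate 1 and 4 of 66 in replicate 2, or 6.15% and 6.06%, against 4.34% and 4.37% of all shared distal DHSs. Over all distal DHSs, shared or not, the letters stood in 5 of 91 and 7 of 114, or 5.49% and 6.14%, against 3.84% and 3.19%. In the central 100 bp they stood in 4.40% and 4.39%, against 2.35% and 1.96%. These shares rest on 7 or fewer sites. The 4 shared sites lay at -37438 bp from Inha (heights 1.38 and 1.06), 33037 bp from Inhbb (1.77 and 1.43), and -39282 bp and -25526 bp from Amh. The last 2 had 1.5 and 1.96, and 1.80 and 2.32, and were among the 12 of 65 shared distal DHSs higher in replicate 2. Of the 4 shared sites, those of Inha and Inhbb had a footprint on the letters in replicate 1. None of the 4 had one in replicate 2, the library with fewer footprints genome-wide. The letters also stood in DHSs at promoters of other genes. In the Slc4a3 promoter, 42794 bp from the Inha start, heights were 4.47 and 6.04, with a footprint on the letters in both libraries. A DHS at 38974 bp, seen in replicate 1 alone, had 2.67 and such a footprint. A DHS 7288 bp from the Amh start had 1.92 and 1.87 and no footprint on the letters. No own promoter DHS held the letters, 0 of 23 and 0 of 19, against 1.13% and 1.11% of all promoter DHSs. Among the other letters searched in the same shared distal DHSs, AGGTCA stood in 24.6% and 24.2%, against 18.8% and 18.9%. Those sites include the ones with CAAGGTCA. SP/KLF stood in 26.2% and 27.3%, against 11.7% and 11.6%. GATA stood in 13.8% and 13.6%, against 12.5% and 12.7%. TEAD (GGAATG) stood in 10.8% and 12.1%, against 11.7% and 11.8%. SOX (AACAAT) stood in 3.08% and 1.52%, against 5.97% and 6.01%. SMAD letters (CAGACA) stood in 15.4% and 19.7%, against 19.7% in each library. AP-1 (TGANTCA) stood in 5 and 6 sites, 7.69% and 9.09%, against 18.4% and 18.8%. CTCF stood in 13.8% and 12.1%, against 12.9% and 12.8%. FOX factors (TGTTTAC) stood in 5 and 4 sites, 7.69% and 6.06%, against 2.10% and 2.14%. In the central 100 bp, FOX letters stood in only 1 site in each library, 1.54% and 1.52%, against 0.861% and 0.863%. There SP/KLF stood in 16.9% and 16.7%, against 8.08% and 7.92%, and AP-1 in 4.62% and 7.58%, against 12.4% and 12.9%.

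The wider pathway of 27 genes of activin, TGF-beta and BMP signalling was mostly open too. In replicate 1, 25 had a promoter DHS, in replicate 2, 24, and the same 24 had one in both libraries, against the 65.8% of all genes given above. Of those 24, 19 were lower and 5 higher in replicate 2. The highest were Tgfbr1, the type I TGF-beta receptor (26.3 and 21.7), Bambi, a decoy receptor (24.1 and 18.4), and Smad4, the common partner of the signal-carrying SMADs (24.3 and 17.5). The ligand chain gene Inhbe had 0.892 in replicate 1 and none in replicate 2. Inhbc, its neighbour in the family, and Foxh1, a nuclear partner of SMADs, had no promoter DHS in either library.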

How the data were processed

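DNase-seq of adrenal gland from 2 male mice was analysed from the deposited files of each library: 2 peak lists, genome-wide FDR stretches and footprints, all in mm10. The deposited peak height is a signal value, which the authors scaled to library depth, an inference from the values, since every height is a whole multiple of 1 step. The deposited FDR values (q-value scale) list stretches at or below 0.05, and deposited footprints carry 1 common FDR of 0.01. For the aligner and the callers, versions are not given in the sources used.

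The longer peak list of each library was used. Gene starts came from GENCODE M21, with 54236 protein-coding starts, and sequences and motifs from the RefSeq genome GRCm38.p6 (Python 3.11.15, pandas 2.3.3, samtools 1.23.1). The RefSeq promoter table held 7 of the 9 genes, and not Amh and Fst. Ranks are percents of all genes below a value. Density is distal DHSs per 100 kb of window. Motifs, 13 in all, were searched on both strands in the central 200 bp. A footprint touches a match when they share a base. Overlap counts and promoter calls were tested on simulated data.

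The 9 genes, the wider pathway, the markers and the motifs were chosen with earlier results of these data known. Named single DHSs were the strongest own promoter DHS, the strongest distal DHS and the strongest distal DHS seen in 1 library alone, for each gene, and the low DHSs and FDR values at Amh were looked at after seeing the data, as were the unequal or letter-bearing DHSs whose sequence is printed. Alternatives were promoter windows of 0.5 and 2 kb, 5′ ends only, flanks of 25 and 100 kb, reciprocal overlap of 50%, the shorter list, the 50000 strongest DHSs, a 100 bp motif window and each library alone. Leaving out Amh and heights under 0.5 were added after seeing the data.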

Additional observations from a re-analysis of the deposited data

How the results depend on the processing

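The count of genes with a promoter DHS in both libraries was 9, and 7 to 9 under each alternative run. For the windows of 0.5 and 2 kb and the 50000 strongest DHSs, no share over all genes is given beside it. The median promoter height over the 9 genes, 3.77 as the mean of both libraries, was 1.91 with a 0.5 kb window, and 2.38 to 4.31 with each library left out in turn. The number of distal DHSs followed the settings: in replicate 1 it was 49 with 25 kb flanks, 154 with 100 kb and 52 among the 50000 strongest, and in replicate 2 it was 60, 180 and 49, and 66 with the shorter list. The percent shared with 25 kb flanks was 59.2 in replicate 1 and 48.3 in replicate 2. These values lay closer than in the main setting to the 56.3 and 44.5 of all distal DHSs. In replicate 1 the percent was 59.4 with the shorter list and 82.7 among the strongest. In replicate 2 it was 87.8 among the strongest, 68.4 without the Amh locus and 77.8 for heights of 0.5 or more. With a reciprocal overlap of 50% it was 63.7 and 50.9. For the shorter list, the strongest, the height limit and the reciprocal overlap, no share over all distal DHSs is given, so these values cannot be read as high or low. The number of shared distal DHSs with CAAGGTCA was 3 in each library with a 100 bp window. No paired analysis was possible because both libraries belong to 1 group and no test was run. With 2 mice, the spread between animals rests on a single difference per site, and intervals cover counting error only.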
